A study of Homo sapiens with 6 samples.

Results

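The regions described here carried a BRD8 peak in Calu3 cells and met neither a 16HBE14o- BRD8 peak nor a Calu3 CTCF peak. They were found by pooling the 3 deposited peak lists, joining peaks that overlapped by at least 1 bp, and keeping the merged regions that held Calu3 BRD8 peaks only. Of 21110 merged regions, 1838 met this rule (8.71%) and are called members below. They were thus chosen by the peak calls themselves, so that signal, score, peaks per region and distances between the lists are given as a description, with no test. They made up 22.5% (95% exact Clopper-Pearson interval 21.6 to 23.4%) of the 8178 merged regions with Calu3 BRD8. They held 2166 of the 9769 Calu3 BRD8 peaks and covered 0.950 Mb on 23 chromosomes.

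The study mapped binding by chromatin immunoprecipitation and sequencing (ChIP-seq) in 2 human lung epithelial cell lines, both grown in DMEM with 10% fetal bovine serum and with no treatment or genetic change named in the labels. Calu3 is a lung adenocarcinoma line and 16HBE14o- a bronchial epithelial line. BRD8 was mapped in both with an Active Motif antibody, and CTCF in Calu3 alone with a Millipore antibody. The authors combined the 2 replicates of each experiment into 1 list by IDR, the irreproducible discovery rate, a method that retains peaks whose ranks agree between replicates. A list is therefore 1 pooled value with no error of its own, and the depth behind it is unknown. All intervals and p-values below cover counting error over regions, which are not replicates of a culture.

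BRD8 carries a bromodomain, a fold that binds acetylated lysine, and belongs to the NuA4/TIP60 complex. That complex acetylates histones H2A and H4 at active chromatin and helps exchange histone variants at promoters and enhancers. CTCF is a zinc finger protein that stops cohesin as it extrudes chromatin, and so marks insulators and loop anchors. Absence from a list is not absence of the protein: CTCF in Calu3 or BRD8 in 16HBE14o- may bind at a member below the authors' threshold. Members are given by cytogenetic band and hg19 coordinates, because no gene annotation of that build was used here.

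Members were the weakest of the 4 classes of Calu3 BRD8 regions. The strength of a region is the authors' signal of its strongest Calu3 BRD8 peak. Over the 1838 members it ran from 7.26 to 129, with a median of 27.6 and quartiles of 23.8 and 33.5. The median was 34.4 in the 2235 Calu3-only regions with CTCF, 31.8 in the 563 regions of both lines without CTCF, and 42.0 in the 3542 regions of both lines with CTCF. The quartile ranges of all 4 classes overlapped. A tail of weak sites was largest among members: 230 of them (12.5%) had a signal under 20, against 3.45%, 2.49% and 1.16% in the other classes in that order.

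The authors' score, which runs from 540 to 1000 in this list, followed the same order. Its median was 743 in members, 890 in regions of both lines without CTCF, 952 in Calu3-only regions with CTCF and 1000 in regions of both lines with CTCF. The ceiling of 1000 was reached by 398 members (21.7%) and by 46.5% of the Calu3-only regions with CTCF.

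When the 8178 Calu3 BRD8 regions were ranked by signal and cut into deciles, the share of members grew from one decile to the next. Only 21 of 818 regions of the strongest decile were members (2.57%, 1.60 to 3.90%). In decile 7 the share was 26.3% (23.3 to 29.4%), and in the weakest decile 435 of 817 regions were members (53.2%, 49.8 to 56.7%). Calu3-only regions with CTCF did not follow this course, with 120 regions in the strongest decile, 275 in decile 6 and 196 in the weakest.

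**Figure D1:**
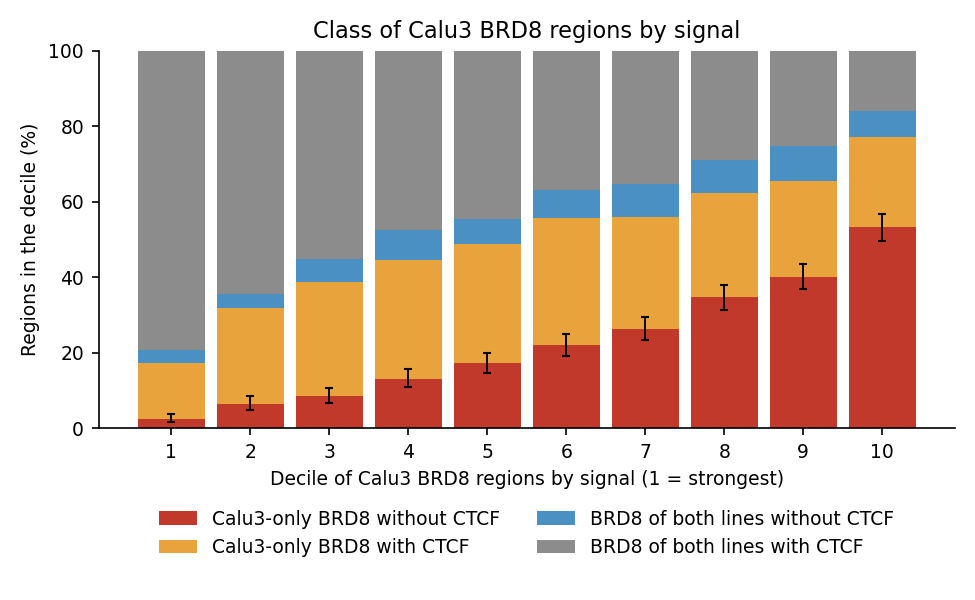
Share of the 4 classes of Calu3 BRD8 regions (vertical axis, percent) in each decile of signal (horizontal axis, 1 = strongest). The bottom part of each bar is the members, with its 95% exact interval; it rises from 2.57% to 53.2%.

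A small number of members were nevertheless strong, with 32 inside the first 1000 ranks of the Calu3 BRD8 list. The member of highest signal lay in 17p11.2 (chromosome 17, 18529040 to 18529339), with a signal of 129 and rank 163. It stood alone, 335 kb from the nearest CTCF peak and 408 kb from the nearest 16HBE14o- BRD8 peak. The next lay in 17p13.1 (chromosome 17, 8286577 to 8286755), with a signal of 126 and rank 175. Here the lists nearly met, since a CTCF peak lay 28 bp away and a 16HBE14o- BRD8 peak 58 bp away. The third, in 6q23.2 (chromosome 6, 132600986 to 132601127, signal 89.3), had a CTCF peak 25 bp away and the nearest 16HBE14o- peak at 118 kb.

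The 20 members of highest signal ran from 129 down to 66.9, and from rank 163 to rank 809. All 20 had the score of 1000. Of these, 8 lay on the long arm of chromosome 3: 3 of them in 3q22.1 (signals 85.1, 82.3 and 68.3), 2 in 3q27.1 (83.5 and 72.8), and 1 each in 3q25.31 (75.6), 3q12.1 (67.5) and 3q27.3 (67.3). The others were in 2q11.2 (84.5), 7q33 (80.8), 17q12 (78.7), 8q11.21 (73.9), 18q21.33 (71.4), 19q13.42 (69.1), 8q24.22 (68.8), Xp11.22 (68.8) and 10q21.2 (66.9). A CTCF peak lay within 1 kb of 4 of the 20 and a 16HBE14o- BRD8 peak within 1 kb of 2. In contrast, 11 lay more than 10 kb from both.

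Short regions were rarer among members than in the other classes, but those found were mostly strong. The usual Calu3 BRD8 peak is 476 bp wide, and 1515 members (82.4%) had exactly this width. Only 9 members (0.490%) were shorter, from 137 to 300 bp, against 49 Calu3-only regions with CTCF (2.19%), 16 regions of both lines without CTCF (2.84%) and 300 of both lines with CTCF (8.47%). Of the 9 short members 5 were among the 20 strongest, and the median signal over the 9 was 83.5. In 2q11.2 a pair of short members lay next to each other (chromosome 2, 97778069 to 97778359 and 97778362 to 97778548), with signals of 84.5 and 10.1 and a CTCF peak 158 bp from the second. In 17q21.31 a member of 137 bp (chromosome 17, 44271165 to 44271301, signal 51.2) lay 99 bp from a CTCF peak and 165 bp from a 16HBE14o- BRD8 peak.

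**Figure D2:**
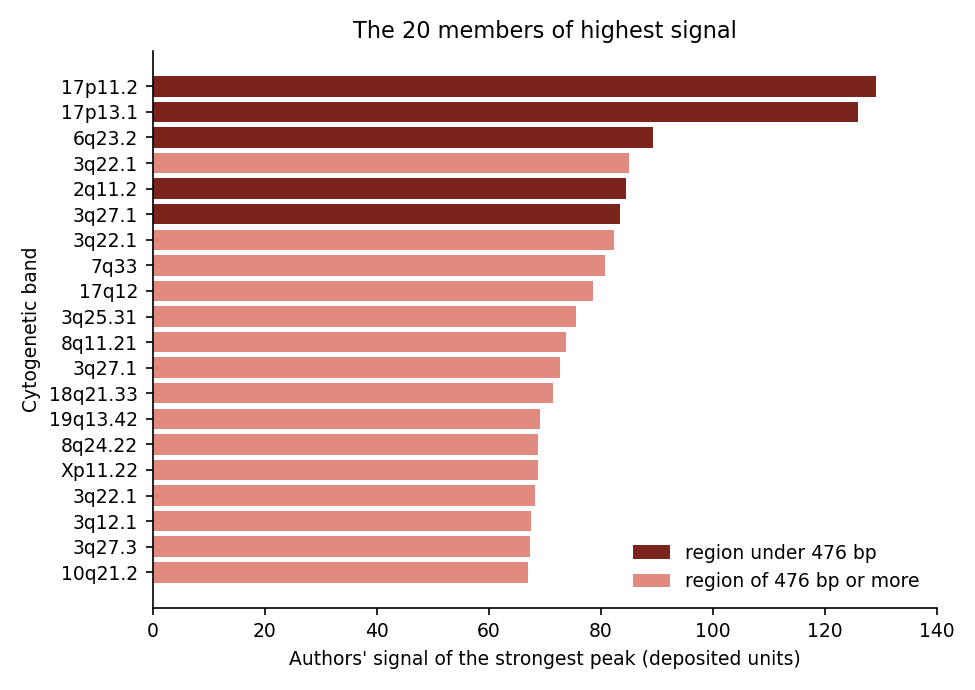
Authors' signal (horizontal axis, deposited units) of the 20 members of highest signal, by cytogenetic band. Dark bars are regions shorter than the usual 476 bp; they include 5 of the first 6 bars, and the signals fall from 129 to 66.9.

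Most members were single peaks. Of the 1838, 1524 (82.9%) held 1 Calu3 BRD8 peak, 301 held 2, 12 held 3 and 1 held 4. The share with more than 1 peak was 17.1%, and it was 18% in Calu3-only regions with CTCF, 15.1% in regions of both lines without CTCF and 20.9% in regions of both lines with CTCF. Neighbouring summits within a member were a median of 213 bp apart (199 to 419 bp over 328 pairs). The member with 4 peaks lay in 3p21.31 (chromosome 3, 46745740 to 46747292), was 1553 bp long and had a signal of 33.1. It was 74.0 kb from the nearest CTCF peak. Of the 12 members with 3 peaks, 3 were on 3q, in 3q29 (signals 38.7 and 12.8) and 3q27.3 (11.8), and 2 on 3p, in 3p21.31 (31.9) and 3p14.1 (22.4). The other 7 were in 1p34.3 (16.0), 7p15.3 (12.2), 8q24.12 (13.4), 9p13.3 (13.4), 10q11.22 (15.6), 20q11.22 (15.3) and 20q11.23 (35.0). These broad sites were thus mostly weak: 8 of the 12 had a signal under 20.

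Members lay mainly far from the lists they did not meet, with a minority just beside them. Distances are again set by the rule and are given without a test. The gap to the nearest CTCF peak had a median of 24.4 kb (quartiles 5.82 and 78.4 kb) and reached 2.54 Mb. It was at most 1 kb for 218 members (11.9%) and over 100 kb for 353 (19.2%). In regions of both lines without CTCF the median was 33.6 kb, and 25 of 563 (4.44%) had a CTCF peak within 1 kb. The gap from members to the nearest 16HBE14o- BRD8 peak had a median of 64.0 kb (quartiles 16.5 and 201 kb). It was at most 1 kb for 117 members (6.37%), against 62 of 2235 Calu3-only regions with CTCF (2.77%), whose median was 69.3 kb.

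The gap to the nearest Calu3 BRD8 region outside the class had a median of 62.1 kb, and 112 members were within 1 kb of one. Leaving other members aside, 1584 members (86.2%) had no peak of the 3 lists within 1 kb. A further set of 89 members had both a CTCF and a 16HBE14o- BRD8 peak within 1 kb. At the other extreme, 288 (15.7%) were over 100 kb from both, and their median signal was 28.0.

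Weak signal and nearness went together. Among the 218 members within 1 kb of a CTCF peak, the median signal was 24.2 and 33% had a signal under 20. Among those over 100 kb from CTCF, the median was 28.2 and 4.82% were under 20. The same held for 16HBE14o- BRD8, with a median of 22.4 and 41.9% under 20 within 1 kb, and 28.2 and 6.96% over 100 kb. It also held for the nearest Calu3 BRD8 region outside the class. Within 1 kb of such a region, the median was 21.9 and 43.8% were under 20. Over 100 kb from it, the median was 28.5 and 6.47% were under 20. The order of the bins in between was also from more to fewer weak members. The part of the neighbouring peaks in these weak signals was not tested.

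The rule has a threshold of 1 bp, and the sites on both sides of it are given here with no test. The members nearest to CTCF lay in 5p15.33 (chromosome 5, 472706 to 473181), 2 bp from a CTCF peak with a BRD8 signal of 23.2, and in 17q21.31 (chromosome 17, 41400486 to 41400961), 3 bp away with a signal of 32.6. The regions that barely met CTCF lay in 20q13.33 (chromosome 20, 62339183 to 62340145), with 2 bp of overlap and a signal of 24.6, and in 8q24.3 (chromosome 8, 141520977 to 141521735), with 7 bp and 31.1. The members nearest to 16HBE14o- BRD8 lay in 22q13.31 (chromosome 22, 46709781 to 46710256), 22 bp away with a signal of 13.4, and in 11q13.4 (chromosome 11, 71689100 to 71689575), 28 bp away with 9.58. The regions that barely met it lay in 10q22.3 (chromosome 10, 79806807 to 79807471; 35 bp, signal 44.3) and 1q41 (chromosome 1, 214505263 to 214505916; 46 bp, signal 25).

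**Figure D3:**
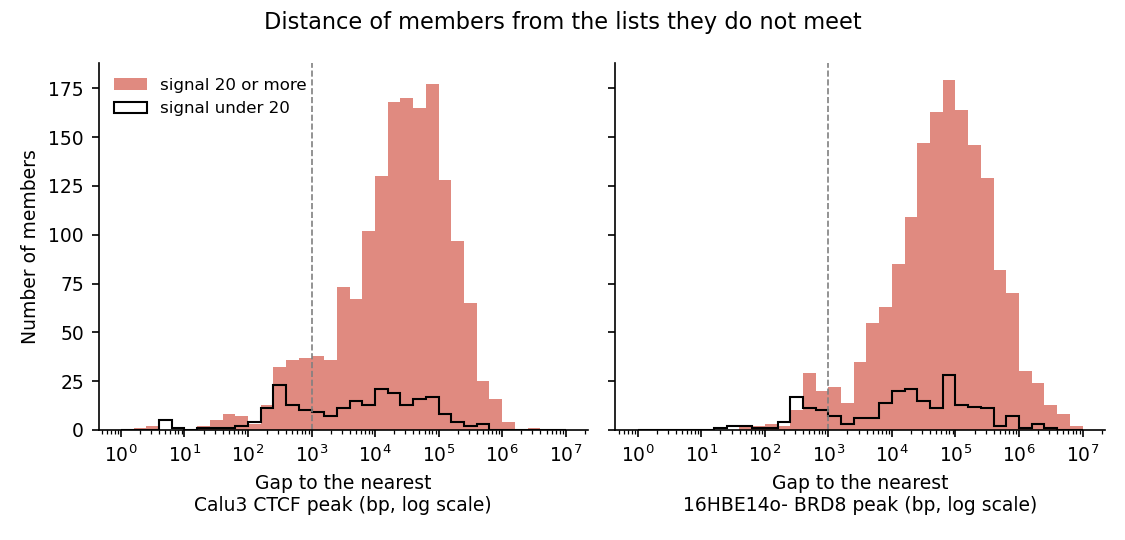
Number of members (vertical axis) by their gap in bp (log scale) to the nearest Calu3 CTCF peak and the nearest 16HBE14o- BRD8 peak. Filled bars are members with a signal of 20 or more and the black outline is those under 20; left of the dashed line at 1 kb are 218 and 117 members in the 2 panels.

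The rule did not name a position along the genome, so shares by arm were tested. Position still bears on the rule, since an arm dense in CTCF or 16HBE14o- BRD8 peaks can leave fewer Calu3 BRD8 regions to the class. The ratios by arm below are thus partly set by the calls that chose the members. Chromosome 3 held the most members, 289 (15.7%), or 1.46 per Mb against 0.605 over the whole genome. Chromosome 19 was denser, with 100 members and 1.69 per Mb, and chromosome 13 held 9, or 0.0781 per Mb. Members made up 22.5% of all Calu3 BRD8 regions, and 34.1% of those on 3q and 31.4% on 3p. The share was 21.2% on 19q, 17.2% on 19p and 22% on 13q, none of them above that of the whole list. On the long arm of chromosome 3 there were 220 members (12%). The members of 3q had a median signal of 25.8, and 44 of them (20%) had a signal under 20, yet 11 of the 32 members within the first 1000 ranks were on this arm. Over the 30 arms with at least 20 members, the median signal of members ran from 24.1 on 20q to 32.0 on 10p.

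The first test set members against Calu3-only regions with CTCF, which come from the same BRD8 libraries of the same line. The question was whether sites without CTCF fall on the same arms as sites with it. They did so in part: of 36 arms with at least 20 regions over both classes, 12 differed (33.3%; adjusted p under 0.05 by Fisher's exact test, two-sided, with Benjamini-Hochberg adjustment over the arms). Members were the more frequent class on 6 arms (16.7%) and the less frequent on 6 (16.7%).

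The short arm of chromosome 5 held 23 members and 6 Calu3-only regions with CTCF, a ratio of class shares of 4.66 (1.85 to 14, exact test, adjusted p = 0.0021). On 4q there were 28 and 11 (ratio 3.10, 1.49 to 6.89, exact test, adjusted p = 0.0071). On 20q there were 69 and 34 (ratio 2.47, 1.61 to 3.84, exact test, adjusted p = 0.00014). The ratio was 3.24 on 17p, 1.57 on 8q and 1.46 on 10q. Members were less frequent on 11p, with 46 against 142 (ratio 0.394, 0.276 to 0.553, exact test, adjusted p = 1.1e-07), and on 15q, with 30 against 82 (ratio 0.445, 0.283 to 0.683, adjusted p = 0.00081). The ratio was 0.182 on 16q, where 3 members stood against 20, and 0.495 on 19p, 0.497 on 16p and 0.535 on 22q. These ratios depend on both classes. Among all Calu3 BRD8 regions of the arm, members made up 18.75% on 20q and 22.1% on 11p, against 22.5% of the whole list. Members were thus not above that share on 20q, and were close to it on 11p. Their share was 34.3% on 5p, 41.2% on 4q and 12.1% on 15q.

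Because neighbouring regions depend on each other, the p-values are smaller than they should be. Of these 12 arms, 5p, 4q, 11p and 15q kept their call under every alternative in which they could be tested, and 20q did so except in the upper 50% of each list (ratio 1.71, exact test, adjusted p = 0.18). That alternative left too few regions on 5p and 4q for a test, so these arms are not shown to be firmer than 20q. It also drops the weaker CTCF and 16HBE14o- BRD8 peaks, so its class is not a part of the members. On 16q that class held 8 regions, against 3 members. The other 7 lost their call in 2 to 5 alternatives each. The call on 10q was lost without the 18 neighbouring members of 10q11.22 described below (ratio 1.20, exact test, adjusted p = 0.42). On 8q the ratio turned to 0.578 in the upper 50% of each list (exact test, adjusted p = 0.063). Counting 1 region per class in each 100 kb bin left 6 arms called.

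The arm with most members, 3q, was not called in this test. It held 220 members and 237 Calu3-only regions with CTCF, a ratio of 1.13 (0.935 to 1.36, exact test, adjusted p = 0.32). On 10p the numbers were 28 and 36 (ratio 0.946, 0.556 to 1.59), and on 7p 95 and 134 (ratio 0.862, 0.656 to 1.13).

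Against the corresponding class of the other line, 16HBE14o--only BRD8 regions without CTCF, the arms differed far more often. Of 41 arms tested, 26 were called (63.4%; Fisher's exact test, adjusted p under 0.05), 12 higher in members (29.3%) and 14 lower (34.1%). On 3q the 220 members stood against 21 regions of 16HBE14o-, a ratio of class shares of 15.5 (9.88 to 25.5, exact test, adjusted p = 1.0e-63). On 11p and 10p there were 46 and 28 members and no 16HBE14o- region, so that no ratio could be formed. With a floor of 3 regions put in place of 0, the ratios would be 22.7 and 13.8. These are not lower bounds, as the exact 95% intervals began at 17.7 and 10.5. In the upper 50% of each list the value on 11p was 13.2. On 7p the ratio was 6.68 (95 against 21, 4.13 to 11.3), and it was 20.5 in the upper 50% of each list. Calu3-only regions with CTCF were also many on these arms, with 237 on 3q, 142 on 11p, 36 on 10p and 134 on 7p. The contrast with 16HBE14o- on these arms was thus not particular to members.

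The opposite held on 18p, with 1 member against 45 regions, on 16q (3 against 39), and on 6q, where 16 members stood against 203 (ratio 0.116, 0.0653 to 0.194, exact test, adjusted p = 3.4e-28). Of the 26 arms, 21 kept their call under every alternative in which they could be tested. The other 5 lost it in at least 1 alternative, with a highest adjusted p by Fisher's exact test of 0.69 on 8q, 0.17 on 4q, 0.10 on 2q, 0.098 on 8p and 0.085 on 16q. The call on 4q was lost in 4 of 8 alternatives. BRD8 binding and chromosome content of the 2 lines cannot be told apart in this comparison.

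Of the arms called in both comparisons, 10q, 8q and 16q differed in the same direction. The ratios were 1.46 and 2.02 on 10q, 1.57 and 1.83 on 8q, and 0.182 and 0.114 on 16q, each time first against Calu3-only regions with CTCF and then against 16HBE14o--only regions without CTCF. In the former comparison 10q, 8q and 16q each lost their call in some alternatives, and in the latter 8q and 16q did. The directions were opposite on 20q (2.47 and 0.534), on 4q (3.10 and 0.60) and on 11p, where the members' share was 0.394 times the former and the latter class had no region. The members enter both comparisons, so the 2 ratios are not independent.

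**Figure D4:**
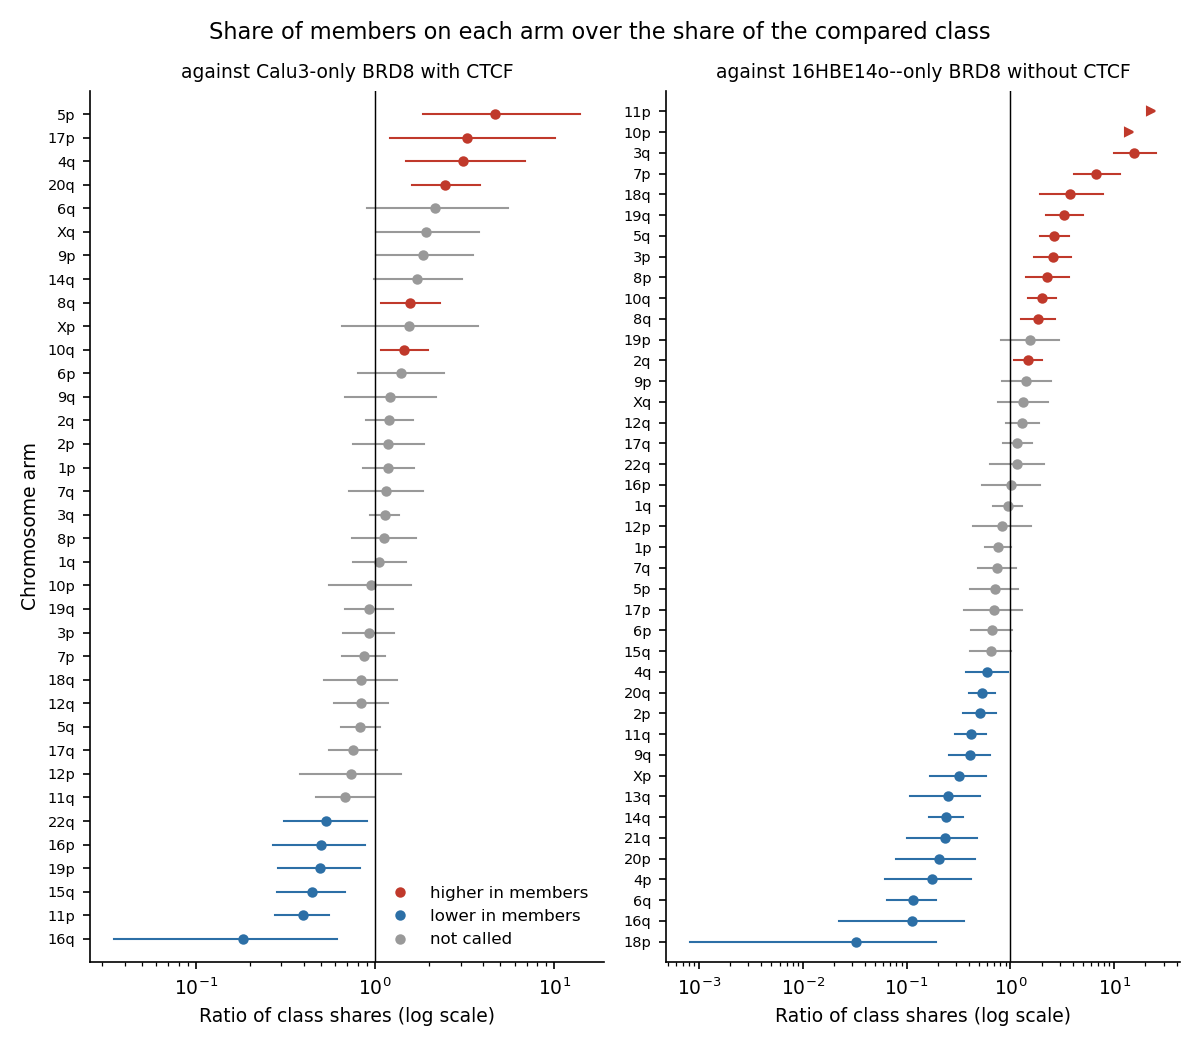
Ratio of class shares by chromosome arm (log scale), members over Calu3-only BRD8 regions with CTCF (left, 36 arms) and over 16HBE14o--only BRD8 regions without CTCF (right, 41 arms). Lines are 95% exact intervals, and red and blue mark the 12 and 26 arms called. Arrows mark 11p and 10p, where the compared class has no region. They stand at the floor values of 22.7 and 13.8, which are not lower bounds. The exact intervals began lower, at 17.7 and 10.5.

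Giemsa staining divides chromosomes into light bands, which are known to be rich in genes and G+C, and dark bands. Light bands make up 42.4% of the length of the autosomes and X, and 1104 of 1838 members lay in them (60.1%). The share was 58.5% in Calu3-only regions with CTCF (odds ratio 1.07, 0.940 to 1.21, Fisher's exact test, adjusted p = 0.48) and 59.7% in regions of both lines without CTCF (odds ratio 1.02, 0.838 to 1.23, adjusted p = 0.88). These differences were within counting error. Against 16HBE14o--only regions without CTCF, of which 55.5% lay in light bands, the share in members was higher by 4.58 percentage points (odds ratio 1.21, 1.07 to 1.36, Fisher's exact test, adjusted p = 0.0068). In the upper 50% of each list that difference was 3.78 points (exact test, adjusted p = 0.13). As arms differ in their share of light bands, and the classes differ by arm, this difference is not separate from the one above.

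By band, members were spread over 501 of 851 bands. The fullest bands, picked after their values were seen, were 8q24.3 with 40 members, 10q11.22 with 24, 3q29 with 20, and 17q12, 19q13.2 and 3q27.1 with 18 each. In 10q11.22 members made up 66.7% of the Calu3 BRD8 regions, with 4 Calu3-only regions with CTCF and 8 of both lines with CTCF beside them. In 8q24.3 they made up 37.4% and in 17q12 23.7%, close to the 22.5% of the whole list.

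Most members were not grouped: joining members at most 10 kb apart gave 58 groups with 125 members (6.80%). The group with the most members was in 10q11.22, with 10 members in 39.0 kb (chromosome 10, 46967807 to 47006842). The next was in 19q13.32, with 3 members in 3.13 kb (chromosome 19, 46387165 to 46390289, signals from 8.51 to 31.6). The other 56 groups were pairs, of which the shortest was the pair of short members in 2q11.2 described above.

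With gaps of up to 50 kb the group in 10q11.22 grew to 18 members over 163 kb (chromosome 10, 46967807 to 47130883), or 110 per Mb. Their signals ran from 12.4 to 44.6, with a median of 20.8, and 8 of the 18 were under 20. The strongest of them (chromosome 10, 47079996 to 47080683, signal 44.6, rank 2402) lay 262 bp from a CTCF peak. More than 1 peak was found in 10 of the 18, against 17.1% of all members. Within the same span lay 5 CTCF regions without BRD8 and 4 other BRD8 regions of Calu3, all with CTCF. One of these, at 46983485 to 46984018, was called in both lines, had a signal of 240.6 and ranked 22 in the Calu3 list. The others had signals of 59.9, 37.8 and 26.5. A CTCF peak lay within 10 kb of 13 of the 18 members, against 589 of all 1838 members (32.0%). The span held no region of 16HBE14o- BRD8 alone, but such a region lay 655 bp past the last member.

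**Figure D5:**
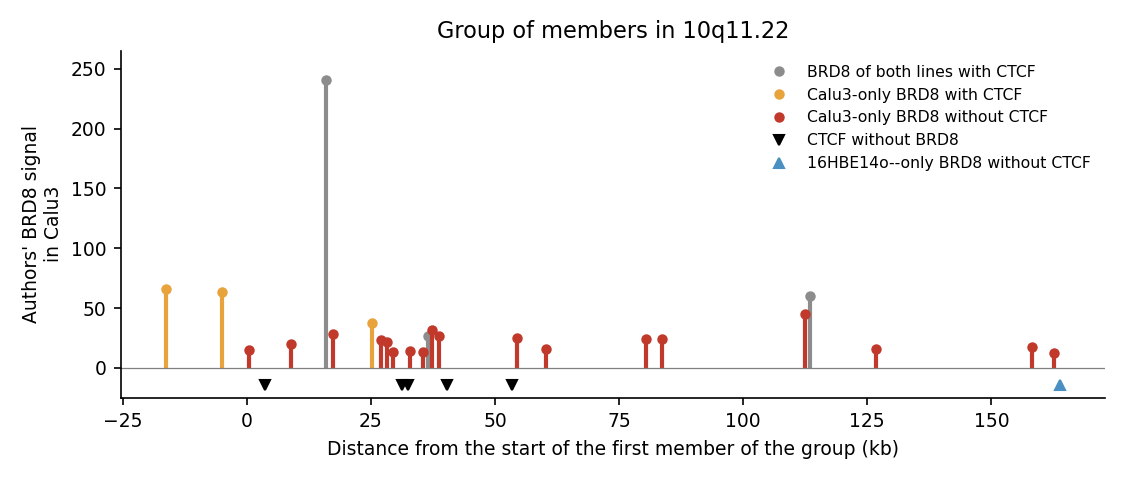
Authors' BRD8 signal in Calu3 (vertical axis, deposited units) of BRD8 regions in and within 20 kb of the group in 10q11.22, by distance from the first member's start (kb). The 18 members are all at or below 44.6. A site of both lines with CTCF that reaches 240.6 lies near one end of the group, at 15.9 kb. Triangles below the line mark regions with no Calu3 BRD8 peak.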

How the data were processed

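ChIP-seq peaks of BRD8 in Calu3 and 16HBE14o- and of CTCF in Calu3 were analysed (6 samples, 2 per list). The authors made 1 IDR list from each pair of replicates, as the series' design text says. Per the file headers, the lists are narrowPeak on hg19. The aligner, peak caller, control library and IDR settings are not given in the sources used here. The deposited signal ranks peaks within a list and was compared only within the Calu3 BRD8 list. The authors' score was described for the same list. The value in the q-value column, another score of the authors, was not used, and neither was the p-value column, which holds -1 throughout. The summit's offset from the peak start, as deposited, is a number of another kind and placed the summits.

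Peaks were merged in Python 3.11.15 (numpy 2.4.6, pandas 2.3.3, scipy 1.17.1), with the number of regions checked against bedtools 2.31.1. A region's band was taken at its midpoint, from circlize 0.4.16, whose chromosome lengths equal those of hg19 in GenomeInfoDb 1.38.1. Figures were drawn with matplotlib 3.10.9. Classes were compared per arm, with at least 20 regions, and by light bands with two-sided Fisher's exact tests and Benjamini-Hochberg adjustment within each family. Ratios of class shares have an exact interval from the binomial split, and odds ratios a Woolf interval. The merging and arm test were tested on simulated data. For the arm test the simulated regions were drawn independently, so its error with dependent neighbouring regions was not tested. Regions named are the 20 members of highest signal, those with the most peaks, 3 groups with gaps of up to 10 kb, and the 2 nearest the threshold on each side. The rule asked for the 3 densest groups; they were ranked by number of members, then by shortest span, which decided among 56 pairs. Deciles, short members, bands, groups with gaps of up to 50 kb and the comparison by light bands were added after values were seen. The members and lists were chosen with earlier results of these data known. The planned comparisons of gene starts, motifs and CpG content were not made, since no hg19 sequence or annotation was used here.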

Additional observations from a re-analysis of the deposited data

How the results depend on the processing

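Counting a meeting only by reciprocal overlap of at least 50% gave 4130 regions (50.5% of Calu3 BRD8 regions), and peaks set to 200 bp around the summit gave 2880 (31.5%), against 1838 (22.5%). The share was 29.6% in the upper 50% of each list, 28.0% with summits within 100 bp and 20.5% with peaks up to 500 bp apart joined. The upper 50% also drops the weaker CTCF and 16HBE14o- BRD8 peaks, so regions that met only these peaks enter the class. Its 29.6% is thus not the share of members among strong sites. With all peaks kept, that share ran from 2.57% in decile 1 to 17.3% in decile 5. The number of arms that differed from Calu3-only regions with CTCF fell from 12 to 7 in the upper 50% of each list, to 7 with peaks up to 500 bp apart joined and to 6 with 1 region per class in each 100 kb bin. In the upper 50% of each list, 8q turned to a ratio of 0.578 and the difference in light bands from 16HBE14o--only regions without CTCF was 3.78 percentage points (exact test, adjusted p = 0.13). The upper 50% and the 100 kb bins also hold fewer regions, and the cause of these changes was otherwise not tested. The 100 kb bins, the removal of members within 1 kb of a CTCF or 16HBE14o- BRD8 peak, the removal of the 10q11.22 group, and all alternatives for light bands and for arms against 16HBE14o- were chosen after seeing the data. No paired analysis was possible because each list pools its replicates, and for the same reason no replicate could be left out. The alternatives planned for gene starts, motifs and CpG content were not run, since those comparisons were not made.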
